A study of Mus musculus with 29 samples.

Results

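The genes of the mitochondrial respiratory chain and of ATP synthase were followed in liver RNA-seq libraries of obese mice. Members were the protein-coding genes whose symbols begin with Ndufa, Ndufb, Ndufc, Ndufs, Ndufv, Uqcr, Cox4, Cox5, Cox6, Cox7, Cox8, Atp5 or mt-, together with Sdha, Sdhb, Sdhc and Sdhd. Genes whose symbols begin with Ndufaf, which encode assembly factors of complex I, were left out. Of the 54532 gene identifiers in the count table, 99 were members, 86 of them encoded in the nuclear genome and 13 in the mitochondrial genome. Complex I had 43 members, of which 36 were nuclear and 7 mitochondrial, and complex II had 4, all nuclear. Complex III had 9 members, of which 8 were nuclear, complex IV had 23, of which 20 were nuclear, and ATP synthase, or complex V, had 20, of which 18 were nuclear. The choice by symbol also takes in Atp5s, a coupling factor, and Cox7a2l, a factor of respiratory supercomplexes. It leaves out Cyc1, which encodes the cytochrome c1 subunit of complex III and is described with the electron carriers.

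The study compared livers that carry Prox1 K556R with wild-type livers, in the fasted and in the refed state. Prox1 encodes a homeobox factor that hepatocytes need, and K556R replaces the lysine at which the protein is modified by SUMO. The mutation was induced in hepatocytes of 8-week-old males by Cre recombination, so the other cells of the mutant liver keep their Prox1 gene as it was. All 4 groups, wild type included, had been on a diet with 45% fat and 20% fructose for 18 weeks, and livers were collected at zeitgeber time 15 to 17. No lean group was analysed here, and how Cre was delivered and which of its parts the wild-type mice carry are not given in the sources used here. The K556R fasted group held 7 libraries, 3 of batch 2 and 4 of batch 1. The WT fasted group held 8 libraries, 4 of each batch. The K556R refed group held 8 libraries, 4 of each batch, and the WT refed group held 6, 3 of each batch. The labels name a batch number and no more, and they call the libraries of a group repeats without saying that each came from another animal, so a p-value here reflects only how far these libraries vary.

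Oxidative phosphorylation takes electrons from NADH and succinate and passes them along complexes I to IV to oxygen, and the protons pumped on the way drive ATP synthase. Mitochondrial DNA encodes a small set of core subunits of complexes I, III, IV and V, whereas complex II and all other subunits are encoded in the nucleus and imported. The nuclear and the mitochondrial genes are transcribed by different polymerases, and the mitochondrial genes are cut from long transcripts of either strand. In the liver the chain oxidises the products of fatty acid breakdown in fasting and of carbohydrate breakdown after a meal.

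Libraries held 14385218 to 27278251 counts, with a median of 21026287, and 15603 genes passed the filter on low counts. Levels are given as CPM, the gene's share of its library's counts on a common scale after normalisation by the trimmed mean of M-values. The hepatocyte marker Alb had a median of 61510 CPM and Hnf4a one of 573 CPM. The skeletal muscle genes Acta1, Ckm, Myh4 and Tnnt3 had a median of 0 CPM, as did Ucp1 of brown fat. Prox1 averaged 186 ± 12.3 CPM in K556R fasted and 174 ± 12.97 CPM in WT fasted livers, and 149.7 ± 25.5 CPM in K556R refed and 164 ± 22.7 CPM in WT refed livers (SD, n = 7, 8, 8 and 6). A point mutation need not alter this level, so it does not check the genotype labels. In batch 1, WT fasted repeat 3 and WT refed repeat 2 had the lowest share of mitochondrial messenger RNA of their groups, 4.30% and 4.92% of counts. Over both batches the other WT fasted libraries had 5.15% to 5.95% and the other WT refed ones 5.41% to 6.69%. No flag of the check for single libraries described below concerned this share. Shares, ratios, medians and counts of calls that rest on these 2 libraries are also given without them.

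Per length, 7 of the 13 mitochondrially encoded genes were above every nuclear subunit and the other 6 lay within the nuclear range. Summed over all 29 libraries, mt-Co1 held 35.6% of the counts of the 13 mitochondrial genes and averaged 13150 CPM per kilobase of transcript. It encodes the catalytic subunit of cytochrome c oxidase, complex IV. mt-Cytb, the cytochrome b subunit of complex III, followed with 9520 CPM per kilobase. Among the complex I subunits, mt-Nd1 averaged 6943, mt-Nd2 5605, mt-Nd4 3881, mt-Nd6 3824 and mt-Nd5 3159 CPM per kilobase. The remaining mitochondrial genes were much lower, at 231 CPM per kilobase for mt-Co2, 219 for mt-Atp6, 149 for mt-Co3, 117 for mt-Nd4l, 40.9 for mt-Nd3 and 18.1 for mt-Atp8. Those 6 genes together held 0.827% of the mitochondrial counts.

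All 6 of these low genes lie in the segment of mitochondrial DNA that has a copy in the nuclear genome. On chromosome 1, at chr1:24611535-24616197 of mm10, minus strand, 7 annotated genes carry the sequence of mt-Nd4, mt-Nd4l, mt-Nd3, mt-Co3, mt-Atp6, mt-Co2 and the end of mt-Co1, in that order. The copy of mt-Co3, Gm28437, matches all 783 bases aligned without a mismatch and received 61128 counts over the 29 libraries, against 70272 for mt-Co3 itself. The copy of mt-Co2, Gm28661, received 89035 counts, against 90927 for mt-Co2, and the copy of mt-Nd3, Gm28438, received 30576 counts, against 8559 for mt-Nd3. The copy of mt-Co1, Gm29216, covers bases 1063 to 1545 of the gene with 1 mismatch and received 43746 counts, against 12105325 for mt-Co1. The first 120 bases of 2 of these alignments are printed here in mm10 coordinates, from the GENCODE transcripts, to show how little sequence there is to tell the genomes apart; capitals mark the base at which the copy differs.
mt-Co1, chrM:6390-6509, plus strand: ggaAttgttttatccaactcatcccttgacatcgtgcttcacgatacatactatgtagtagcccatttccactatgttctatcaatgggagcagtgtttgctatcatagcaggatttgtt
Gm29216, chr1:24616069-24616188, minus strand: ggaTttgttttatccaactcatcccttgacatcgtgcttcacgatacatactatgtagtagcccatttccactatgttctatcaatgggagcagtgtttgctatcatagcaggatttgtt
mt-Co3, chrM:8607-8726, plus strand: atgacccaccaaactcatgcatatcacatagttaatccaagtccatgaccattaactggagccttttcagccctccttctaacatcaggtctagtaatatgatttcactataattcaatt
Gm28437, chr1:24613852-24613971, minus strand: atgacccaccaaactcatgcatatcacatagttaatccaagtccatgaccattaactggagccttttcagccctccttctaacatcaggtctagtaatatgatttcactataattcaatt
The mt-Co3 pair holds no capital, since its stretches are identical.

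Of all windows of 50 bases in a transcript, 100% of those of mt-Co2 and 99.9% of those of mt-Co3 occur in another annotated transcript, with 99.5% for mt-Atp6, 98.8% for mt-Nd4l and 98.0% for mt-Nd3. For mt-Nd4 the share was 62.2% and for mt-Co1 51.1%, while mt-Nd2 had 8.2% and mt-Nd5 7.6%. mt-Cytb, mt-Nd1, mt-Nd6 and mt-Atp8 shared no such window. mt-Atp8 encodes a short ATP synthase subunit, lies at chrM:7766-7969 between the copied mt-Co2 and mt-Atp6 genes and overlaps the start of mt-Atp6. The labels and the processing notes do not state how the authors' counting treated strand or reads that match more than 1 place or gene. Values of the 6 low genes are therefore uncertain. How far those of mt-Nd4 and mt-Co1 include reads of their shared parts is not known. mt-Nd6 is read from the opposite strand to its neighbours, and without strand-specific counting its reads cannot be told apart from antisense reads of the other strand's transcript.

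**Figure D1:**
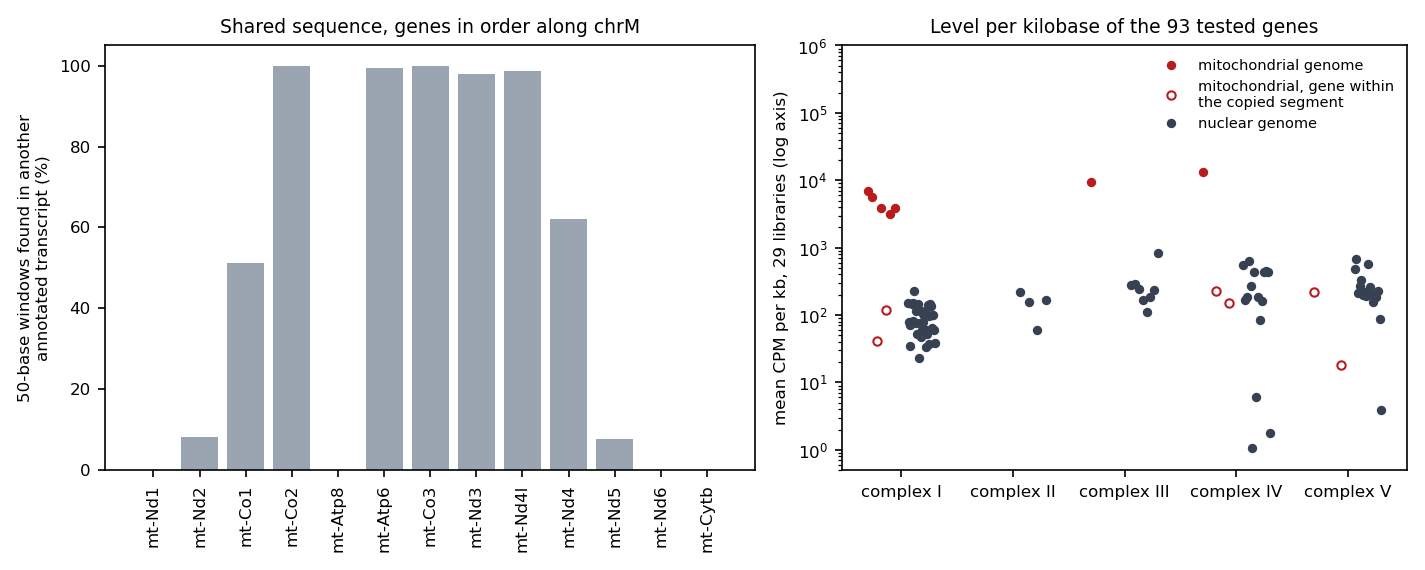
Left, the share of 50-base windows of each mitochondrial transcript found in another annotated transcript, in percent, with genes in order along the mitochondrial genome; it reaches 98.0% or more in 5 genes from mt-Co2 to mt-Nd4l. Right, the mean CPM per kilobase over 29 libraries of the 93 tested genes by complex, on a log axis, with each point a gene. The 7 mitochondrial genes that are not wholly within the copied segment (filled red) lie at 3159 or more, above every nuclear gene. The 6 within it (open red) lie at 231 or less. Of the 7, mt-Nd4 and mt-Co1 are copied in part.

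Among the nuclear subunits the supernumerary Uqcrq of complex III had the highest level, at 835 CPM per kilobase, followed by the catalytic beta subunit Atp5b of ATP synthase at 677 and Cox6a1 of complex IV at 637. The lowest subunit of complex III was the core protein Uqcrc2 at 109, and Atp5s lay at 3.92. Complex I subunits lay lower, between 23.4 for Ndufb2 and 230 for Ndufa6. The 4 subunits of complex II, succinate dehydrogenase, had 221 for the flavoprotein Sdha, 169 for the membrane anchor Sdhd, 156 for the iron-sulfur protein Sdhb and 59.2 for the second anchor Sdhc. The isoforms of complex IV subunits that liver and most tissues use were abundant, with 560 CPM per kilobase for Cox4i1, 455 for Cox8a, 442 for Ndufa4, 273 for Cox6b1, 184 for Cox7a2 and 161 for Cox7b. Other forms of complex IV subunits, known from tissues such as muscle, lung or testis or from hypoxia, were low. Cox7a1 had 6.06, Ndufa4l2 1.80, Cox6b2 1.08, Cox8b 0.649, Cox4i2 0.122 and Cox6a2 0.0821 CPM per kilobase.

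In all, 93 of the 99 members passed the filter, 80 nuclear and all 13 mitochondrial. The 6 that did not pass were Cox8b with 127 counts over all libraries, Cox4i2 with 56, Cox6a2 with 33, and Cox7b2, Cox8c and a second identifier of Atp5o, each with 0. Among those tested, Atp5g2 shares 100% of its 50-base windows with another annotated transcript, Atp5l 84.8% and Atp5g1 66.0%, so their counts may be split between near-identical copies.

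The summed share of the nuclear subunits had a lower mean in K556R than in WT livers in each feeding state and batch. The gap was small throughout and least in refed livers of batch 2. The mean mitochondrial share was higher in K556R livers of batch 1 with all libraries kept, and close between genotypes in batch 2. The 86 nuclear genes held 1.25 ± 0.0227% of counts in K556R fasted livers (SD, n = 7; lowest 1.22, median 1.24, highest 1.29) and 1.34 ± 0.0689% in WT fasted livers (n = 8; 1.22, 1.35 and 1.41). In refed livers they held 1.33 ± 0.0981% with K556R (n = 8; 1.20, 1.33 and 1.48) and 1.38 ± 0.0932% in WT (n = 6; 1.25, 1.38 and 1.53). The groups overlapped in both feeding states. Within batch 2 the fasted groups did not overlap, with 1.22% to 1.26% in K556R and 1.29% to 1.41% in WT livers. Within batch 1 they did, with 1.24% to 1.29% in K556R and 1.22% to 1.41% in WT livers. The refed groups overlapped in each batch. Their means were 1.41 ± 0.0622% in K556R and 1.43 ± 0.0982% in WT livers of batch 2 (SD, n = 4 and 3). In batch 1 they were 1.25 ± 0.0485% in K556R and 1.33 ± 0.0751% in WT refed livers (SD, n = 4 and 3).

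The 13 mitochondrial genes held 5.74 ± 0.549% of counts in K556R fasted livers (5.05, 5.73 and 6.65) and 5.32 ± 0.519% in WT fasted livers (4.30, 5.29 and 5.95). They held 5.98 ± 0.539% in K556R refed livers (5.38, 5.95 and 6.65) and 5.81 ± 0.720% in WT refed livers (4.92, 5.59 and 6.69). In batch 2 the group means lay close together, at 5.26 ± 0.235% in K556R fasted, 5.24 ± 0.0856% in WT fasted, 5.49 ± 0.114% in K556R refed and 5.53 ± 0.105% in WT refed livers. In batch 1 they were 6.10 ± 0.399%, 5.41 ± 0.775%, 6.47 ± 0.161% and 6.10 ± 1.02% for the same groups. Without the 2 libraries with a low mitochondrial share, the mean was 5.47 ± 0.338% in WT fasted livers (n = 7) and 5.99 ± 0.640% in WT refed livers (n = 5), and within batch 1 it was 5.78% in WT fasted livers (n = 3) and 6.69% in WT refed livers (n = 2). Over all groups, the share was 5.38 ± 0.182% in batch 2 and 6.02 ± 0.696% in batch 1, or 6.23 ± 0.412% in batch 1 without those 2 libraries.

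The log2 ratio of mitochondrial to nuclear counts was 2.20 ± 0.133 in K556R fasted and 1.98 ± 0.189 in WT fasted livers, and 2.16 ± 0.224 in K556R refed and 2.07 ± 0.243 in WT refed livers. In batch 2 its means were 2.09 in K556R fasted and 1.98 in WT fasted livers, with 1.96 in both refed groups. In batch 1 its means were 2.28 in K556R fasted and 1.99 in WT fasted livers, with 2.37 in K556R refed and 2.18 in WT refed livers. Without the 2 low libraries it was 2.03 in WT fasted and 2.12 in WT refed livers over both batches, and 2.11 and 2.36 within batch 1. In bulk tissue, fewer hepatocytes and less RNA of these genes per hepatocyte cannot be told apart.

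**Figure D2:**
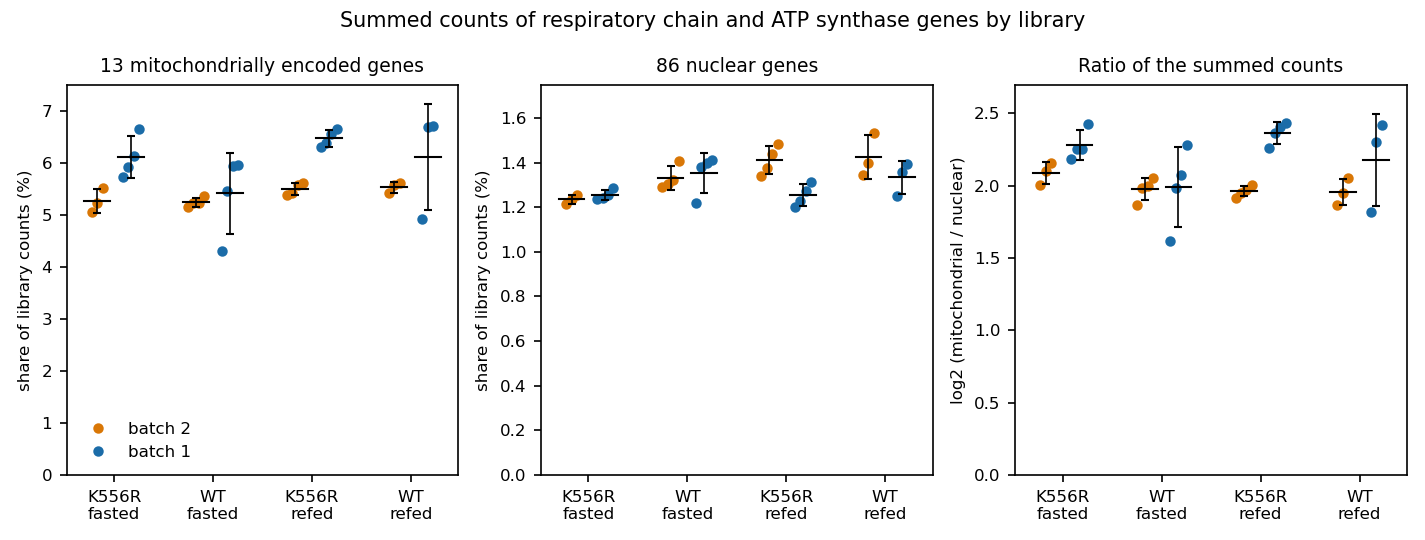
Each point is a library; from left to right, the share of counts held by the 13 mitochondrial genes, the share held by the 86 nuclear genes, both in percent, and the log2 ratio of the summed counts, by group and batch, with mean and SD bars. In batch 2 the mitochondrial share spans 5.05% to 5.60%, and in batch 1 it spans 4.30% to 6.69% with 1 library low in each wild-type group.

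Fold changes between K556R and WT were fitted with edgeR's quasi-likelihood test across all 15603 genes with a term for batch, and genes whose p, adjusted after Benjamini and Hochberg, was below 0.05 are described as called. In fasted livers no member was called higher or lower, while 0.0833% of all tested genes were called higher and 0.0192% lower. In refed livers edgeR called no gene at all, so the background was 0% higher and 0% lower, where DESeq2 called 31 genes higher and 13 lower. Averaged over both feeding states, 4 nuclear members were called lower and none higher, while 0.628% of all tested genes were called higher and 0.615% lower. At an unadjusted p below 0.05 stood 32 of 80 nuclear members in fasted livers, 22 in refed livers and 44 in the average. Over all genes that count was 1479, 1319 and 2291 of 15603. DESeq2 called 2 members lower in fasted livers and none in refed livers. In the average it called 18 nuclear members lower and 1 mitochondrial member, mt-Co3, higher. The shares of all tested genes given above for fasted livers and the average are edgeR's and are not the background of these DESeq2 counts. DESeq2's own shares there are not given, so its counts are not read as a result about the members.

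The nuclear subunits lay below zero nearly throughout. Their median log2 fold change, K556R over WT, was -0.11 in fasted livers, where 5 of 80 were positive, -0.11 in refed livers, where 5 were positive, and -0.12 in the average, where 3 were positive. The median over all tested genes was 0.00 in the average. The nuclear median was -0.13 in batch 2 alone and -0.09 in batch 1 alone for the average. Scaling by DESeq2's size factors, or without the mitochondrial genes, left 3 of 80 positive.

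By complex, the average gave a median of -0.11 for complex I (1 of 36 positive), -0.11 for complex II (0 of 4), -0.12 for complex III (1 of 8), -0.08 for complex IV (1 of 15) and -0.12 for complex V (0 of 17). The highest nuclear value was that of Cox6b2, a testis form, at 1.00 with an adjusted p of 0.158, and it rests on a gene at about the level of the filter. The 34 nuclear members that share no 50-base window with another transcript had a median of -0.13. A set of 443 other tested genes with transcripts under 1000 bases and a mean log2 CPM of at least 4, put together after these values were seen, had a median of -0.07 with 121 positive. The 80 cytosolic ribosomal protein genes had a median of -0.04 and the 77 mitochondrial ribosomal protein genes one of -0.06.

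Ndufb8, a supernumerary subunit in the membrane arm of complex I, gave the smallest adjusted p. It had 55.7, 59.9 and 66.0 CPM (lowest, median and highest) in K556R fasted livers and 62.1, 72.1 and 85.96 CPM in WT fasted livers. In refed livers it had 60.2, 68.3 and 77.1 CPM with K556R and 64.0, 76.6 and 82.3 CPM in WT. The groups overlapped, with the K556R median below the WT median in both feeding states. Its average log2 fold change was -0.20 (SE 0.0457, adjusted p = 0.0252), with -0.14 in batch 2 and -0.25 in batch 1. It was called in 26 of 29 fits that each left out 1 library.

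Ndufa10, an accessory subunit of complex I, had 136, 156 and 167 CPM in K556R fasted livers and 145, 159.9 and 186 CPM in WT fasted livers. It had 136, 151 and 155 CPM in K556R refed livers and 149.6, 169.9 and 181 CPM in WT refed livers. Its average log2 fold change was -0.15 (SE 0.0373, adjusted p = 0.0354), and it was called in 13 of the 29 fits. Both pairs of groups overlapped, the refed pair only at the low end of WT.

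Uqcrc1, a core protein of complex III, had 259, 266 and 277 CPM in K556R fasted livers and 263, 297 and 350 CPM in WT fasted livers. It had 229, 264 and 289 CPM in K556R refed livers and 256, 298 and 324 CPM in WT refed livers. The average change was -0.16 (SE 0.0421, adjusted p = 0.0457), and 8 of the 29 fits called it. The groups overlapped, with the K556R median below the WT median in both states.

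Atp5a1, the alpha subunit of ATP synthase, averaged 1126 ± 45.0 CPM in K556R fasted livers and 1253 ± 78.7 CPM in WT fasted livers (SD, n = 7 and 8). It averaged 1139 ± 61.1 CPM in K556R refed and 1253 ± 76.5 CPM in WT refed livers (SD, n = 8 and 6). The average change was -0.15 (SE 0.0369, adjusted p = 0.0431), and 10 of the 29 fits called it. Just past the threshold stood Cox4i1, the main form of subunit 4 of complex IV, at -0.18 (adjusted p = 0.0557), and Ndufs7, an iron-sulfur subunit of complex I, at -0.23 (adjusted p = 0.0640).

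Within a single feeding state no member passed the edgeR threshold. In fasted livers Ndufb8 was at -0.26 (SE 0.0635, adjusted p = 0.10), and DESeq2 called it (adjusted p = 0.0312). Ndufs7 was at -0.28 with an adjusted p of 0.273. In refed livers the 4 smallest p-values were those of Ndufa10 at -0.18, Uqcrc2 at -0.15, Uqcrc1 at -0.16 and Atp5a1 at -0.14, with adjusted p between 0.286 and 0.465.

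The count of 4 depended on single libraries. It ranged from 0 to 11 over the 29 fits that left out a library each and moved by more than 1.5 times in 22 of them. It was 0 without WT refed repeat 2 of batch 1 or without WT refed repeat 3 of batch 1, and 11 without WT refed repeat 1 of batch 1. Without both libraries of low mitochondrial share it was 0, while the nuclear median stayed at -0.11 with 1 of 80 positive. The share of all genes called in each of these fits is not given. The counts of calls are therefore not read as a result about the members.

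Ndufa4l2, a low-level paralog of the complex IV subunit Ndufa4 known as a hypoxia-responsive gene, had the most negative value among nuclear members in fasted livers. It had 0.957, 1.498 and 2.16 CPM in K556R fasted livers and 1.28, 2.69 and 3.22 CPM in WT fasted livers. The log2 difference was -0.78 (SE 0.208), which edgeR did not call (adjusted p = 0.14) and DESeq2 did (adjusted p = 0.0397). In refed livers it had 0.904, 1.45 and 1.86 CPM with K556R and 1.11, 1.28 and 1.78 CPM in WT, with a log2 difference of 0.12 (adjusted p = 0.918). The WT fasted group thus held the highest values. The difference between the genotype effects, refed minus fasted, was 0.91 with an unadjusted p of 0.00602 and an adjusted p of 1.00.

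With both batches, the mitochondrial genes lacked the negative shift of the nuclear ones, but in batch 2 alone their medians were negative too. Over both batches their median log2 fold change was 0.11 in fasted livers with 13 of 13 positive and -0.00 in refed livers with 6 of 13 positive. In the average it was 0.05 with 13 of 13 positive, and edgeR called none of these genes. At an unadjusted p below 0.05 stood 2 of them in fasted livers, none in refed livers and 1 in the average. In batch 2 alone 4 of 13 were positive in each of these comparisons, with medians of -0.04 in fasted livers, -0.08 in refed livers and -0.07 in the average. In batch 1 alone the medians were 0.22, 0.07 and 0.14, with 13, 10 and 13 positive. Without the 2 wild-type libraries of low mitochondrial share they were 0.03, -0.06 and -0.02, with 9, 3 and 4 positive. Both libraries were picked for that low share and are wild type, so leaving them out lowers these values by the choice itself.

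The 7 genes that are not wholly within the copied segment had average changes between 0.00 and 0.05. The most abundant of them, mt-Co1, had 16420, 19890 and 25260 CPM in K556R fasted livers and 16750, 19430 and 22200 CPM in WT fasted livers. It had 17930, 20510 and 23850 CPM in K556R refed livers and 17880, 19650 and 25640 CPM in WT refed livers. The groups overlapped over almost their whole range, and the average log2 change was 0.03 (SE 0.0533, adjusted p = 0.845). Within the copied segment the values were wider. mt-Co3, which encodes a core subunit of complex IV, had 74.0, 116 and 173 CPM in K556R fasted livers and 66.2, 78.2 and 112 CPM in WT fasted livers. Its average change was 0.48 (SE 0.138, adjusted p = 0.0758 with edgeR and 0.0222 with DESeq2), and its counts carry the uncertainty of the nuclear copy.

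**Figure D3:**
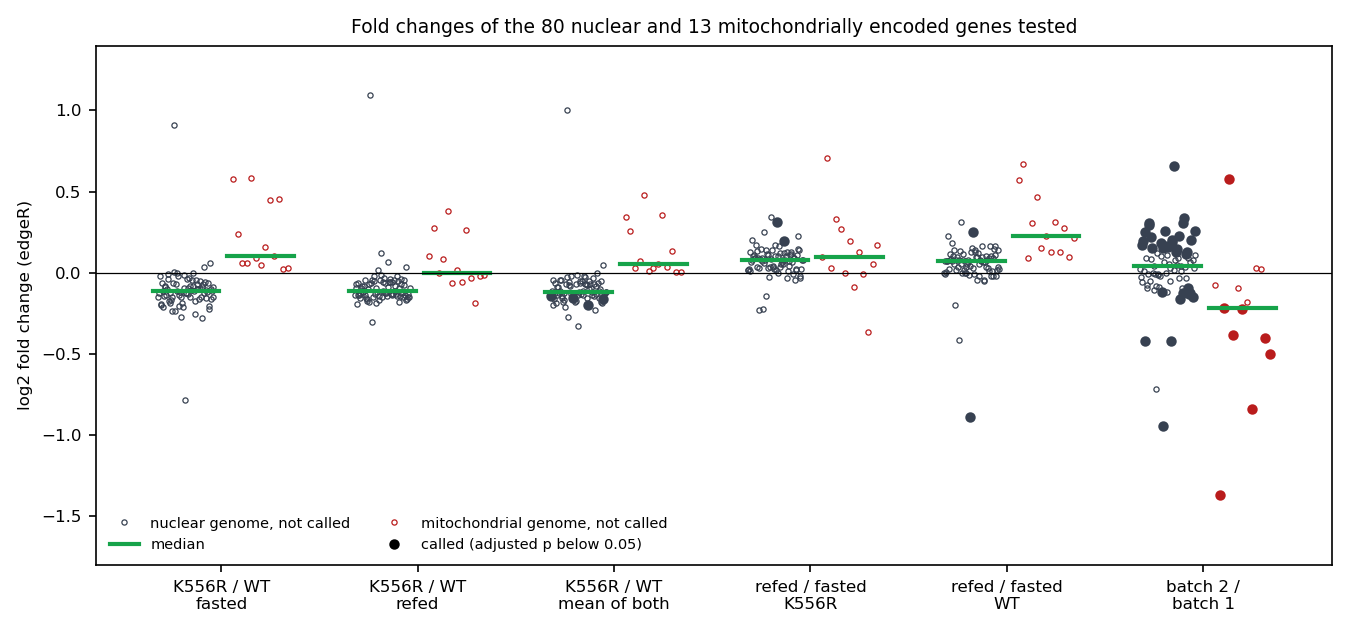
Log2 fold changes (edgeR) of 80 nuclear genes (dark) and 13 mitochondrial genes (red) in 6 comparisons, with green bars for medians and filled points for genes called at an adjusted p below 0.05. The nuclear medians are -0.11, -0.11 and -0.12 for K556R over WT and 0.08 and 0.07 for refed over fasted, and called mitochondrial genes appear only between the batches.

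Of the other lists of mitochondrial genes, the tricarboxylic acid cycle and pyruvate dehydrogenase genes had a median of -0.09 in the average and 2 of 19 positive. Within it Pdha1, a subunit of pyruvate dehydrogenase, was called lower at -0.16 (adjusted p = 0.0252). Of 23 electron carriers and related enzymes 6 were positive, with a median of -0.06, and Cyc1 was called lower, with 192 ± 8.98 CPM in K556R fasted, 225 ± 18.5 CPM in WT fasted, 209 ± 18.6 CPM in K556R refed and 233 ± 26.9 CPM in WT refed livers (log2 change -0.19, adjusted p = 0.0284). Of 17 outer membrane genes 1 was positive, with a median of -0.07, and the fusion protein gene Mfn2 was called lower at -0.15 (adjusted p = 0.0224).

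Among 19 regulators of mitochondrial biogenesis 10 were positive, with a median of 0.01, and the mitochondrial deacetylase gene Sirt3 was called lower at -0.15 (adjusted p = 0.0231). The 44 assembly factors had a median of -0.04 with 12 positive and none called. The 31 genes of mitochondrial DNA expression had a median of -0.01 with 13 positive. The only call among them was Pnpt1, a mitochondrial RNA-processing enzyme, which was higher in K556R livers by 0.23 (adjusted p = 0.0211).

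Markers of some liver cell types were set beside these values for the average of both feeding states. The 6 hepatocyte markers had a median of -0.05 with 1 positive. Their mean log2 CPM spanned 11.64 to 12.15 in K556R fasted, 11.74 to 12.03 in WT fasted, 11.67 to 11.92 in K556R refed and 11.69 to 11.99 in WT refed libraries. The 6 macrophage markers had a median of 0.17 with 6 positive. Their mean log2 CPM spanned 3.33 to 5.47 in K556R fasted, 3.65 to 5.89 in WT fasted, 4.01 to 5.16 in K556R refed and 3.58 to 4.61 in WT refed libraries. All 5 tested cholangiocyte markers were positive, with a median of 0.29, and 5 of 6 stellate cell and fibroblast markers, with a median of 0.12. No gene of these lists was called, and the part of cell composition in the nuclear median was not tested. Genotype values of the other marker lists, such as lymphocyte, neutrophil, endothelial, erythroid and adipocyte genes, are not given here. They may go the other way.

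On refeeding few nuclear members and no mitochondrial gene were called in either genotype. In K556R livers 2 nuclear members were called higher and none lower, where 6.97% of all tested genes were called higher and 8.39% lower. In WT livers 1 was called higher and 1 lower, where 5.25% of all tested genes were called higher and 5.43% lower. Both shares of members lie below the background. The nuclear median, refed over fasted, was 0.08 in K556R livers with 70 of 80 positive and 0.07 in WT livers with 67 of 80 positive. It was 0.14 in K556R and 0.13 in WT livers of batch 2, and 0.02 in K556R and 0.00 in WT livers of batch 1. The 443 short, abundant genes had medians of 0.08 in K556R and 0.07 in WT livers, with 335 and 315 positive.

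Ndufa8, an accessory subunit of complex I, was the member called in both genotypes. It had 88.3, 109 and 127 CPM in K556R refed livers, against 79.5, 84.1 and 93.6 CPM in K556R fasted livers. It had 92.6, 106.5 and 131 CPM in WT refed livers, against 80.6, 89.9 and 103 CPM in WT fasted livers. Refed and fasted groups overlapped in both genotypes. The log2 change was 0.31 in K556R livers (SE 0.0754, adjusted p = 0.00425) and 0.25 in WT livers (SE 0.0779, adjusted p = 0.0372). It was larger in batch 2, at 0.46 in K556R and 0.43 in WT livers, than in batch 1, at 0.18 and 0.07. Leaving out single libraries kept the call in 29 of 29 fits for K556R and in 22 for WT.

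Ndufb8 was also called higher on refeeding in K556R livers, by 0.19 (SE 0.0636, adjusted p = 0.0355), and its change in WT livers was 0.07 (adjusted p = 0.554). The difference between these changes was 0.12 with an adjusted p of 1.00. Ndufa4l2 was called lower on refeeding in WT livers, at -0.89 (SE 0.221, adjusted p = 0.00780), with -0.91 in batch 2 and -0.86 in batch 1, and its change in K556R livers was 0.02 (adjusted p = 0.960). Next in order, and not called, were Ndufa6 of complex I at 0.17 (adjusted p = 0.0698) and Cox7a2l at -0.15 (adjusted p = 0.0890) in K556R livers, and Atp5g1 at 0.23 (adjusted p = 0.117) and Ndufa6 at 0.15 (adjusted p = 0.146) in WT livers.

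Over all genes the difference between the genotype effects in refed and fasted livers gave no call, 0% higher and 0% lower, with edgeR and likewise none with DESeq2, and 440 genes stood at an unadjusted p below 0.05. Ndufa4l2 was the only nuclear member among them, and no mitochondrial gene was. Next came Cox7a2l at -0.15, Ndufb8 at 0.12 and Ndufb2, a complex I subunit, at 0.17, with adjusted p of 1.00 each. The nuclear median of this difference was 0.01 with 47 of 80 positive, and the mitochondrial one was -0.14 with 2 of 13 positive. The mitochondrial genes that are not wholly within the copied segment lay between -0.22 (mt-Nd2) and -0.03 (mt-Nd1). Those within the segment, whose counts are uncertain, lay between -0.64 (mt-Nd4l) and 0.04 (mt-Atp8).

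The mitochondrial genes had a median change on refeeding of 0.10 in K556R livers with 10 of 13 positive and 0.23 in WT livers with 13 of 13 positive, and neither edgeR nor DESeq2 called any. At an unadjusted p below 0.05 stood 1 in K556R and 3 in WT livers. In batch 2 the medians were -0.06 in K556R and 0.10 in WT livers, and in batch 1 they were 0.12 in K556R and 0.38 in WT livers. Without the 2 low libraries they were 0.10 in K556R and 0.25 in WT livers over both batches. In WT livers the 7 genes that are not wholly within the copied segment changed by 0.09 (mt-Co1) to 0.23 (mt-Nd1). The WT median of all 13 thus equals the highest value of these 7. The genes within the segment, whose counts are uncertain, changed by 0.27 (mt-Nd4l) to 0.67 (mt-Atp8) there. In K556R livers the 7 genes changed by -0.09 (mt-Nd2) to 0.20 (mt-Nd1), and those within the segment by -0.37 (mt-Nd4l) to 0.71 (mt-Atp8). Among the 7 genes, mt-Nd1 had the smallest adjusted p. Its change was 0.23 in WT livers (SE 0.0867, adjusted p = 0.0961) and 0.20 in K556R livers (adjusted p = 0.119).

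**Figure D4:**
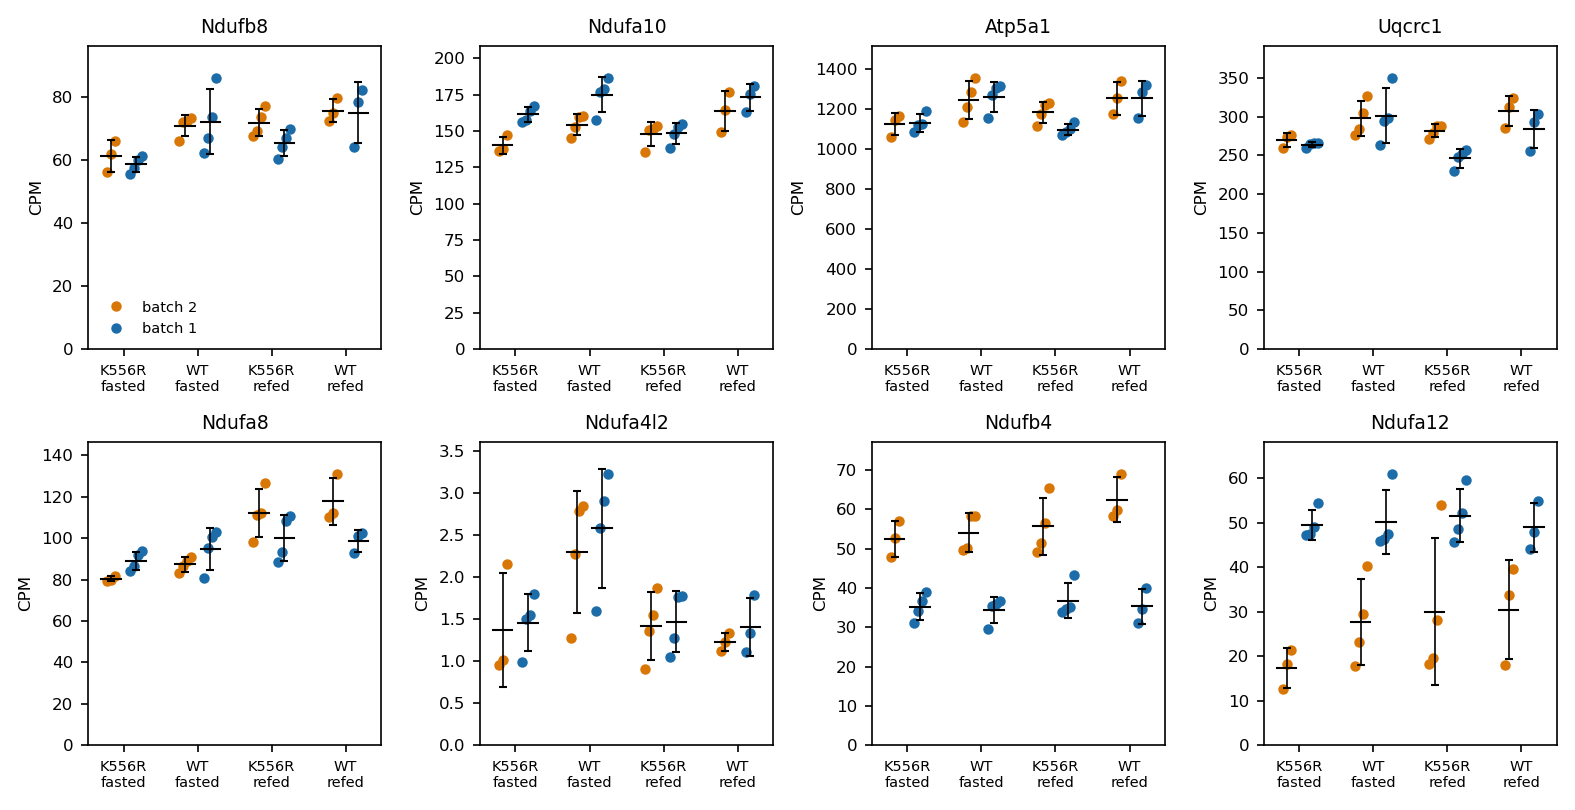
CPM of 8 nuclear members by library (points), group and batch, with mean and SD bars. Ndufb8, Ndufa10, Atp5a1 and Uqcrc1 were called between genotypes over both feeding states, Ndufa8 and Ndufa4l2 on refeeding, and Ndufb4 and Ndufa12 between batches; Ndufb4 spans 47.8 to 69.0 CPM in batch 2 and 29.7 to 43.4 CPM in batch 1.

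Other genes of mitochondrial function were also called on refeeding. Ppargc1b, a coactivator of mitochondrial genes, had 2.52 ± 0.623 CPM in K556R refed and 5.14 ± 0.716 CPM in K556R fasted livers, a log2 change of -1.04 (adjusted p = 1.648e-06), and it was called lower in WT livers at -0.66. The fasting-induced receptor gene Ppara was lower by 0.84 on the log2 scale in K556R and by 0.67 in WT livers. Ppargc1a was called lower in K556R livers at -0.70 and not in WT livers (adjusted p = 0.0673); the genotypes were not shown to differ (adjusted p of the difference 1.00). Nfe2l2, a regulator of antioxidant genes, was called higher at 0.70 in K556R and 0.60 in WT livers. Counts of these lists stand against the 6.97% of all tested genes called higher and 8.39% called lower in K556R livers, and 5.25% and 5.43% in WT livers. Of the 19 regulators, 1 was called higher and 6 lower in K556R livers, and 1 higher and 4 lower in WT livers.

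Of the 19 tricarboxylic acid cycle and pyruvate genes, 4 were called higher and 1 lower on refeeding in K556R livers, and 3 higher and 1 lower in WT livers. They included Idh3a at 0.55 in K556R and 0.48 in WT livers, Pdhb at 0.54 and 0.42 and citrate synthase, Cs, at 0.36 and 0.25. Among electron carriers, cytochrome c, Cycs, changed by 0.25 in K556R and 0.21 in WT livers, and the glycerol phosphate dehydrogenase gene Gpd2 by 0.56 and 0.32. In the same list Coq3 was called lower, at -0.27 in K556R and -0.23 in WT livers. Of 44 assembly factors 9 were called higher in K556R and 3 in WT livers, the WT count being near the share of all genes; among them were Cox10, a heme A enzyme, at 0.46 and 0.36 and Ndufaf4 of complex I at 0.38 and 0.45. Of the 31 genes of mitochondrial DNA expression, the exonuclease gene Mgme1 was called higher at 0.39 in K556R and 0.40 in WT livers, and the transcription factor gene Tfb2m lower at -0.23 and -0.21. Of the 17 outer membrane genes, Cpt1a, the gate for fatty acid entry, was called lower at -0.58 and -0.48, and the mitophagy gene Bnip3 at -0.43 and -0.38. Another gene of that list, Tomm22, was called higher in K556R livers, at 0.22. Of 77 mitochondrial ribosomal protein genes, 26 were called higher in K556R and 10 in WT livers, with a median of 0.14 in each.

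More members were called between batches than between genotypes or feeding states. In batch 2 against batch 1, 24 of 80 nuclear members were called higher and 10 lower, where 11.5% of all tested genes were called higher and 10.6% lower. Of the 13 mitochondrial genes 1 was called higher and 7 lower, with a median of -0.22. Ndufb4, a complex I subunit, had 47.8 to 69.0 CPM in batch 2 and 29.7 to 43.4 CPM in batch 1 with no overlap (log2 change 0.66, adjusted p = 6.353e-11). Ndufa12, another complex I subunit, had 12.6 to 53.9 CPM in batch 2 and 44.0 to 60.9 CPM in batch 1, at -0.95. The ATP synthase c subunit gene Atp5g1 and the acyl carrier gene Ndufab1 were both called lower at -0.42. Also called higher in batch 2 were Ndufs7 at 0.34, Ndufs5 and Atp5k at 0.31 each, Atp5l at 0.29 and Ndufa2 at 0.26, subunits of complex I or ATP synthase. Ndufs1, the largest complex I subunit, was called lower at -0.16, Uqcrc2 at -0.15 and Sdhc at -0.13.

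Among mitochondrial genes mt-Nd6 was lower in batch 2 by 0.50 on the log2 scale, mt-Nd5 by 0.40, and mt-Nd1 and mt-Co1 by 0.22 each. By contrast, mt-Cytb at -0.09 and mt-Nd4 at 0.03 were not called. The counts of mt-Nd6 carry the uncertainty of strand described above. In the copied segment mt-Atp8 was called lower at -1.37 and mt-Nd3 at -0.84, and mt-Co2 was called higher at 0.57. mt-Co3 was called lower at -0.38 (adjusted p = 0.0451), and 10 of the 29 fits that each left out 1 library called it. The erythroid markers moved with the batch as well, with a median of -0.73 and 4 of 5 called lower. Batch values of the other marker lists are not given here, so this move is not shown to be particular to erythroid genes. Neither the share of the erythroid markers in the batch difference nor any step of library preparation behind it was tested.

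The promoters of nuclear subunits are known as targets of NRF1, a transcription factor of respiratory genes. The 250 bases upstream of the annotated start were searched on both strands in RefSeq sequence (GRCm38.p6), which matched 67 of the nuclear members. The core NRF1 palindrome, GCGC, then A, any base and GCGC again, occurred in 13 of the 67 (19.4%), in 8.64% of the 11065 tested genes that matched and in 4.23% of all 27025 promoters. Neither CCGGAAGTG, an ETS-type site, nor the YY1 motif occurred in more than 1 of the 67. Ndufa8, called on refeeding in both genotypes, and Ndufb8, called between genotypes, are shown as examples. No other member with the palindrome was called on refeeding. Capitals mark the match to the NRF1 palindrome.
Ndufa8, chr2:36049339-36049588, minus strand: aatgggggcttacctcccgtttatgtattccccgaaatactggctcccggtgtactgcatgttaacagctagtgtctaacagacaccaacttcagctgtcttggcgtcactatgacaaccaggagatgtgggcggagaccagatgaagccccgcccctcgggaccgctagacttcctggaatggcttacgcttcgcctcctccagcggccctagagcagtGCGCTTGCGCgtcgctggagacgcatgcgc
Ndufb8, chr19:44555443-44555692, minus strand: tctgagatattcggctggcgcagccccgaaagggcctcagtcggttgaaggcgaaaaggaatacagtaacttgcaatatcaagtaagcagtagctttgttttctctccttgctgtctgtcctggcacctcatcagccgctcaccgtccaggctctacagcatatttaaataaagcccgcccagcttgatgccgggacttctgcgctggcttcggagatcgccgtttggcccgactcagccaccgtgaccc
The Ndufa8 window holds the match on the strand opposite to the printed one, and the Ndufb8 window holds none of the 3 sets of letters. A match describes letters in this window and says nothing of binding.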

How the data were processed

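The deposited table held whole-number read counts per gene for 29 poly-A selected liver libraries, which the authors made with STAR, HTSeq, TopHat, edgeR, DESeq2 or STAR-Fusion on mm10, per the submitters' processing notes, which give no roles or versions. All 29 columns matched a sample. Of 54532 identifiers, 54495 matched GENCODE M21, which gave lengths and biotypes; levels per kilobase use the APPRIS principal transcript. Counts were filtered (edgeR's filterByExpr, minimum count 10, minimum total 15), which kept 15603 genes and 99.9% of counts, scaled by TMM (factors 0.93 to 1.08) and fitted with edgeR 4.0.16 (quasi-likelihood, R 4.3.3), with a coefficient per group and a batch term. P-values were adjusted by Benjamini-Hochberg over all tested genes. Standard errors come from the F statistic. CPM use TMM-scaled library sizes. Libraries of a group differed from each other by more than sampling noise in all 92 pairs (chi-square per degree of freedom 11.0 to 167). Alternatives were DESeq2 1.42.0, its size factors, scaling without mitochondrial genes, no filter, each batch alone, a replicate block, leaving out each library and, added after the data were seen, leaving out the 2 libraries of low mitochondrial share.

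Genes were named by rule: all mitochondrial genes; of the nuclear ones, per comparison up to 6 called in each direction or, with fewer than 3 called, the 4 of smallest p; the highest and lowest per kilobase in each complex; complex II; isoform pairs; untested members; and up to 3 called genes per direction of each other list. Of the other lists, some called genes within that limit are left unnamed. Cox4i1 and Ndufs7 in the average and Ndufb8's promoter were added after their values were seen. A gene that the rule names is not reported here. Members and lists were chosen with earlier results of these data known. Scripts were tested on simulated data. Total counts limit the precision of low genes such as Ndufa4l2. Sequences came from GENCODE transcripts and RefSeq promoters (GRCm38.p6).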

Additional observations from a re-analysis of the deposited data

Results flagged for a closer look

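In groups of 4 to 10 libraries, a single library stood apart from its group in 9 of the 212 groups checked for a member or a summed value, which were checked by Dixon's test at the 95% level; chance flags about 1 in 20 groups.

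In WT fasted repeat 3 of batch 1, mt-Cytb was at 7632 CPM, where the other libraries of its group had 9975 to 11290 CPM, and mt-Nd4 was at 3637 CPM, where the others had 4764 to 5583 CPM. This is the library with the lowest mitochondrial share. In WT refed repeat 3 of batch 1, mt-Atp6 was at 401 CPM, where the others had 75.7 to 170 CPM. mt-Nd4l was at 117 CPM in K556R fasted repeat 3 of batch 1, where the others had 19.3 to 48.8 CPM, and at 121.6 CPM in WT fasted repeat 1 of batch 2, where the others had 11.6 to 24.9 CPM. Both mt-Atp6 and mt-Nd4l lie in the segment with a nuclear copy.

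Among nuclear genes, Ndufs1 was at 121.6 CPM in WT refed repeat 1 of batch 2 (others 137 to 145 CPM), Ndufa2 at 65.1 CPM in K556R fasted repeat 2 of batch 1 (others 71.6 to 76.3 CPM), Cox7a1 at 1.46 CPM in K556R fasted repeat 2 of batch 2 (others 1.93 to 2.24 CPM) and Ndufa4l2 at 1.78 CPM in WT refed repeat 2 of batch 1 (others 1.11 to 1.34 CPM). The cause of these values was not tested.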

How the results depend on the processing

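No called member changed sign under the alternatives run. The mitochondrial medians between genotypes, where edgeR called no member, were not stable in sign, being negative in batch 2 alone. In the average without both low libraries the median was negative as well, but leaving out libraries picked for a low share lowers it by the choice itself. Members called lower between K556R and WT in the average of both feeding states, 4 in all, were 0 with no filter, 1 with the replicate block, 0 in batch 1 alone, 0 in batch 2 alone, 18 with DESeq2 and 0 without both libraries of low mitochondrial share; leaving out single libraries gave 0 to 11. Members called higher there were 1 with DESeq2 (0 to 1 without single libraries), and members called lower in fasted livers were 2 with DESeq2. No count from an alternative fit in this paragraph, DESeq2's included, is set against the share of all genes called in that fit. Such counts are not read as a result about the members. Members called higher on refeeding in K556R livers, 2 in all, were 1 with no filter, 1 with the replicate block, 0 in batch 1 alone, 5 in batch 2 alone and 4 without both low libraries (1 to 4 without single libraries); members called lower were 1 in batch 1 alone (0 to 1). In WT livers, members called higher on refeeding, 1 in all, were 0 with no filter, 0 in batch 1 alone and 2 without both low libraries (0 to 4), and those called lower, 1 in all, were 0 in each batch alone. Over nuclear-genome counts alone, the nuclear share was 1.33% in K556R fasted and 1.42% in WT fasted livers. Fewer genes or libraries enter the fits of a single batch; the cause of the other moves was not tested. Same-numbered libraries did not deviate together (40 pairs, correlations of -0.387 to 0.360, median -0.0288). No sign of a pairing by replicate number was seen, which cannot exclude one, since matched libraries need not deviate together.

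Depth and the spread between libraries left standard errors of 0.0369 to 0.0457 on the log2 scale for the 4 members called between genotypes, and the 6 mitochondrial genes within the copied segment rest on 0.827% of mitochondrial counts.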
